A study of Mus musculus with 12 samples.

Results

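Osteocrin (Ostn), the clearance receptor Npr3, the guanylyl cyclase receptors Npr1 and Npr2, and the natriuretic peptide genes Nppc and Nppb were followed through 12 RNA-seq libraries of mouse pre-osteoblasts. They are 6 of the 23358 gene rows in the deposited table and were taken from it by gene symbol. Ostn was chosen by its own read counts in these libraries, which are high with GSK126 on day 6, and is therefore described without a test. The other 5 are taken to have been chosen for their relation to it. Earlier results of these data were known when the set was made, so their p-values may not be free of that choice. Of the 6, 4 (Ostn, Npr2, Npr3 and Nppb) reached a level of 1 CPM (counts scaled to library size) in at least 2 libraries and entered the fit over 12056 genes, and Npr1 and Nppc did not.

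The cells were MC3T3 sc4, a subclone of a C57BL/6 calvarial pre-osteoblast line, at passage 12. On day 6 and on day 1 of culture in osteogenic medium (ascorbic acid and β-glycerol phosphate), RNA was taken from cells given 50 or 10 ng/ml bone morphogenetic protein 2 (BMP2) together with 5 µM GSK126, 5 µM GSK126 alone, 50 or 10 ng/ml BMP2 alone, or vehicle. GSK126 inhibits EZH2, the Polycomb enzyme that methylates histone H3, and BMP2 is a growth factor that drives osteoblast differentiation. All groups shared the medium, which was renewed with its agents during the culture, and a single subclone stands for the osteoblast lineage. Each of the 12 conditions had 1 library, so a difference between single conditions has no replicate check, and tests rest on libraries that share a treatment.

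Osteocrin, also named musclin, is a small secreted protein of bone-forming cells and muscle that binds Npr3. Npr3 lacks a guanylyl cyclase and takes natriuretic peptides into the cell for breakdown, so a ligand that occupies it can leave more C-type natriuretic peptide (CNP, the product of Nppc) for Npr2. Npr2 answers CNP by making cGMP, a signal that promotes growth of long bones, while Npr1 is the cyclase receptor for the atrial and B-type peptides (ANP and BNP).

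In the positions of the deposited table (build mm10), Ostn lies at chr16:27307641-27351209 on the plus strand and Npr3 at chr15:11839897-11905674 on the minus strand. Npr2 lies at chr4:43631935-43651240 (plus), Npr1 at chr3:90450592-90465866 (minus), Nppc at chr1:86666293-86670573 (minus) and Nppb at chr4:147985789-147987205 (plus). No other row of that table overlaps any of the 6. In the GENCODE M21 annotation (GRCm38), genes on the opposite strand overlap Ostn (the antisense gene Gm32312 and the processed pseudogene Gm15970), Npr1 (Gm16048) and Npr2 (Gm12473). The strand setting of the counting is not given in the sources used here, so reads from those partners cannot be told apart from reads of the 3 genes.

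The Ostn transcript of that annotation has 5 exons, and exons 2, 3 and 4 carry the 393 coding bases for a protein of 130 residues. They are shown, read from the reference genome, because this message had the widest range of the 6 genes among the libraries of day 6. Capitals mark the start and stop codons.
Ostn coding exon 2, chr16:27321339-27321437 (+): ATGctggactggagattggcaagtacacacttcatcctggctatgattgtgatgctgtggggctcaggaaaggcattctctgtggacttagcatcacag
Ostn coding exon 3, chr16:27324523-27324731 (+): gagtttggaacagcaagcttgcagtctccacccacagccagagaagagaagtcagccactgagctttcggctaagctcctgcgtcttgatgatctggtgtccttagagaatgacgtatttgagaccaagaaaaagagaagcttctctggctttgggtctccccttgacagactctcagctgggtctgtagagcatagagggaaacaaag
Ostn coding exon 4, chr16:27346871-27346955 (+): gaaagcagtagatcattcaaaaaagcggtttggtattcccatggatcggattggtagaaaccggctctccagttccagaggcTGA

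Promoter windows of 300 bases (250 before to 50 after the start, RefSeq, GRCm38.p6) were held for 5 of the 6 genes. CG dinucleotides, which read the same on both strands, numbered 29 in the Nppc window, 26 in Npr1, 13 in Npr2, 7 in Nppb and 6 in Npr3, against a median of 7 over 32851 windows. As many CG dinucleotides as Nppc were held by 12.9% of all windows, and as many as Npr2 by 37.9%. The Nppb window is set on a start 111 bases inside the start of the deposited row, and the Npr3 window on one 1697 bases upstream of it. Nppc and Npr2 are printed because they encode the ligand and receptor of one pair and differed widely in level, with Nppc at 0 to 4 read pairs and Npr2 at 2050 to 4454. Capitals mark CG.
Nppc promoter, chr1:86670524-86670823 (-): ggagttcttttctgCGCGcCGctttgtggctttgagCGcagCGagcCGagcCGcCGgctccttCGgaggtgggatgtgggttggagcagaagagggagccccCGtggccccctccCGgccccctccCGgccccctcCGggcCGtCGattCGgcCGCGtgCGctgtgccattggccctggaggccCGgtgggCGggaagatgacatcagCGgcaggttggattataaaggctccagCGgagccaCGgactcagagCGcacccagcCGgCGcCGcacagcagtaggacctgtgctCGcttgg
Npr2 promoter, chr4:43631685-43631984 (+): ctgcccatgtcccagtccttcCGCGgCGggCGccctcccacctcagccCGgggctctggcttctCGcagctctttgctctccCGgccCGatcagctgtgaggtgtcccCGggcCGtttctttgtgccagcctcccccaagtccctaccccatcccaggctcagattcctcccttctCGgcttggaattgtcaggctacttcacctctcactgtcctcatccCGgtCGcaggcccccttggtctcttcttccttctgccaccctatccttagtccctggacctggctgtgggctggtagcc

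All counts in the table were even, which no source used here explains, and levels are given as halved counts, taken here as read pairs (one count per mate). CPM here are computed from read pairs, after scaling by the trimmed mean of M-values (TMM), and intervals in brackets are exact 95% Poisson intervals, which cover counting error only. Where a fold is given as at least a value, a count of 0 was set to 3 read pairs, or 0.0486 to 0.0923 CPM depending on the library. The exact interval for a count of 0 reaches higher, to between 0.0597 and 0.113 CPM, and would give smaller bounds. Each ± value is the standard error of a log2 fold change fitted on the 12 libraries. Adjusted p-values come from edgeR's quasi-likelihood test over all 12056 genes with Benjamini-Hochberg adjustment, and a gene passed at 0.05.

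Libraries held 74301112 to 113744802 counts. Reads of the ribosomal precursor Rn45s made up 13.1% to 21.7% of a day 6 library and 8.96% to 11.7% of a day 1 library, a share that was lower with GSK126 than without at every dose and day. All 6 osteoblast markers (Runx2, Sp7, Alpl, Col1a1, Bglap and Ibsp) reached 1 CPM in at least 1 library of day 6 and 5 of them did on day 1, where Bglap did not. Of the heart muscle markers, Myh6 and Myl7 had 0 read pairs in every library, while Tnnt2 reached 1 CPM on day 1. The heart muscle list summed to 2.09 to 3.11 CPM on day 1 and 0.151 to 0.539 CPM on day 6. Of the leukocyte markers, Cd3e had 0 read pairs in every library, and that list summed to 0.576 to 0.923 CPM. The summed endothelial markers stayed at or below 0.284 CPM.

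Ostn, the ligand of Npr3, had 1246, 1498 and 1791 read pairs on day 6 with GSK126 and 0, 10 and 50 ng/ml BMP2, against 4, 1 and 7 read pairs without GSK126 at the same doses. All 6 libraries of day 1, with and without GSK126, held 0. The 3 libraries that had both GSK126 and 6 days of culture lay far above all others, with no overlap. These are the values for which Ostn was chosen. In CPM they were 27.7 (26.2 to 29.3), 29.8 (28.3 to 31.4) and 42.0 (40.1 to 44.0) with GSK126, against 0.0861 (0.0235 to 0.220), 0.0262 (0.000663 to 0.146) and 0.215 (0.0865 to 0.444) without. In bulk RNA, fewer cells expressing a gene and less RNA per cell cannot be told apart.

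The ratio of Ostn with GSK126 to Ostn without it on day 6 was 322 (125 to 1183) at 0 ng/ml BMP2 and 195 (94.5 to 486) at 50 ng/ml. At 10 ng/ml it was 1138, with an interval of 204 to 44980, because the library without GSK126 held 1 read pair. The day 6 libraries with GSK126 were at least 468-, 614- and 822-fold higher at 0, 10 and 50 ng/ml than the day 1 libraries with GSK126, with each count of 0 set to 3 read pairs. No such fold exists for GSK126 on day 1, where both sides were at 0.

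Among the libraries with GSK126 on day 6, Ostn followed the BMP2 dose only in part. Its level with 50 ng/ml was 1.52 times (1.41 to 1.63) that with no BMP2 and 1.41 times (1.32 to 1.51) that with 10 ng/ml. With 10 ng/ml it was 1.08 times (0.997 to 1.16) the level with no BMP2, within counting error. Without GSK126 the dose ratio of 50 ng/ml to none was 2.5 (0.636 to 11.7), which counts of 7 and 4 cannot separate from 1. That of 50 to 10 ng/ml was 8.22 (1.06 to 371), on counts of 7 and 1. Adding the separate effects of each agent in CPM would give 27.6 and 27.8 CPM at 10 and 50 ng/ml, and the combination libraries held 29.8 and 42.0 CPM. Multiplying them would give 8.43 and 69.3 CPM, so the combination lay above that value at 10 ng/ml and below it at 50 ng/ml, an expectation that rests on counts of 1, 4 and 7.

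Per length, Ostn on day 6 with GSK126 had 17.0, 17.8 and 23.9 RPKM (the authors' reads per kilobase, scaled to library size), more than 88.1% to 92.6% of all rows of those libraries. Without GSK126 it had 0.0535, 0.0153 and 0.106 RPKM at 0, 10 and 50 ng/ml. In order of CPM, the 50 ng/ml library with GSK126 came first and those with 10 and 0 ng/ml followed with overlapping intervals. The remaining 9 libraries came after a wide gap, and their neighbours in that order overlapped throughout.

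**Figure D1:**
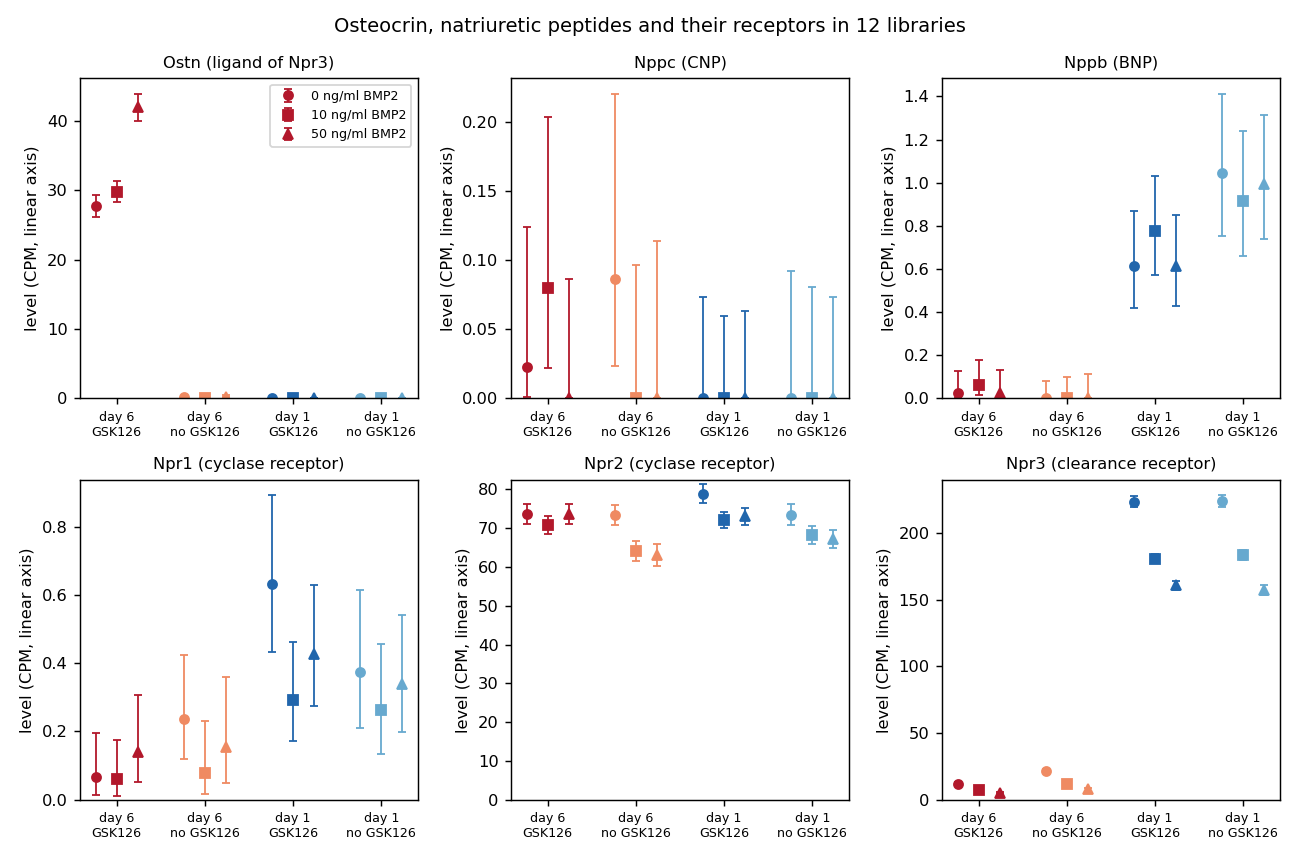
Levels (CPM, linear axes from 0, a separate scale per panel) of the 6 genes in each of the 12 libraries, with marker shapes for BMP2 dose and bars for exact 95% Poisson intervals. Ostn stands at 27.7 to 42.0 CPM on day 6 with GSK126 and at most 0.215 CPM elsewhere, Npr3 is high on day 1 and low on day 6, and Npr2 lies between 63.0 and 78.9 CPM throughout.

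Nppc, the gene for CNP, was hardly detected. It had 1, 4 and 0 read pairs on day 6 with GSK126 at 0, 10 and 50 ng/ml BMP2, against 4, 0 and 0 without GSK126, and 0 in all 6 libraries of day 1. All 9 of its read pairs fell on day 6, in 3 of 6 libraries, with no order by agent, and differences at this level were not detectable at this depth. Nppa, the gene for ANP, was also low, with 4 to 9 read pairs on day 6 and 7 to 18 on day 1.

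Nppb, the gene for BNP, was a transcript of day 1. It had 31, 48 and 36 read pairs on day 1 with GSK126 at 0, 10 and 50 ng/ml BMP2, against 42, 42 and 50 without GSK126. On day 6 it had 1, 3 and 1 read pairs with GSK126 and 0, 0 and 0 without. Every library of day 1 was above every library of day 6. Nppb entered the fit only through 2 libraries of day 1 without GSK126 (0 and 50 ng/ml BMP2), so its differences with day and with GSK126 are described and not tested: day 6 was at least 16.2-, 11.7- and 10.8-fold lower than day 1 at 0, 10 and 50 ng/ml without GSK126. On day 1, the fitted value for BMP2 was 0.02 ± 0.25 (log2, adjusted p = 0.97) and did not pass.

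Npr3, the clearance receptor that osteocrin binds, fell steeply between the days and fell again with each agent. On day 6 it had 12.1, 7.62 and 4.85 CPM with GSK126 at 0, 10 and 50 ng/ml BMP2, against 21.4, 12.1 and 7.78 CPM without GSK126. On day 1 it had 223, 181 and 161 CPM with GSK126, against 224, 183 and 157 CPM without. Each library of day 6 was below each library of day 1, and within day 6 the level was lower with GSK126 at every dose and lower at each higher dose.

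Day gave the widest difference in Npr3. Day 6 was 18.5-, 23.7- and 33.1-fold lower than day 1 with GSK126 at 0, 10 and 50 ng/ml BMP2, and 10.5-, 15.1- and 20.2-fold lower without GSK126. The fitted change was -4.24 ± 0.04 (log2, lower in 6 of 6 treatments, adjusted p = 1.5e-08). Of the 2 receptors tested, Npr3 passed and Npr2 did not, where 78% of all genes passed in this comparison. Only 27 other genes of the 12056 had a fitted fall as large.

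On day 6, Npr3 fell with GSK126 by 0.73 ± 0.05 (log2, lower in 3 of 3 doses, adjusted p = 0.00016), with 28.3% of all genes passing in this comparison and 14% passing in the lower direction. It was 1.77-fold lower (1.60 to 1.97) at 0 ng/ml BMP2, 1.59-fold lower (1.39 to 1.83) at 10 ng/ml and 1.60-fold lower (1.33 to 1.94) at 50 ng/ml. On day 1 the GSK126 value was 0.0025 ± 0.045 (log2, adjusted p = 1.0), and the ratios of libraries with GSK126 to those without were 0.998, 0.985 and 1.02 at 0, 10 and 50 ng/ml. No gene passed for GSK126 on day 1 (0% of 12056 by edgeR; 755 had an unadjusted p under 0.05, DESeq2 called 6 and limma-voom 0), while edgeR on the 6 libraries of day 1 alone called 2030, with Npr3 at an adjusted p of 0.99. The GSK126 effect differed between the days by -0.73 ± 0.07 (log2, day 6 minus day 1, adjusted p = 0.0013), a test that 10.5% of genes passed and 6.52% passed in the negative direction.

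Npr3 fell with BMP2 on both days. On day 6 the mean of both doses stood at -1.06 ± 0.05 against none (log2, lower in 4 of 4 pairs of libraries, adjusted p = 7.4e-05), where 28.7% of genes passed and 15.5% passed in the lower direction. The level at 50 ng/ml was 2.48-fold (2.11 to 2.93) below that at 0 ng/ml with GSK126 and 2.75-fold (2.39 to 3.17) below it without. On day 1 the value was -0.39 ± 0.05 (log2, lower in 4 of 4 pairs, adjusted p = 0.011), with 3.66% of genes passing and 1.86% in the lower direction. The day 1 call was lost when any 1 library of day 1 was left out, with adjusted p up to 0.28. The BMP2 effect was larger on day 6 than on day 1 by -0.67 ± 0.07 (log2, adjusted p = 0.0032; 9.14% of genes passed, 5.33% in the negative direction). That call was lost without the day 1 vehicle library (adjusted p = 0.056) or the day 1 GSK126 library (adjusted p = 0.054).

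**Figure D2:**
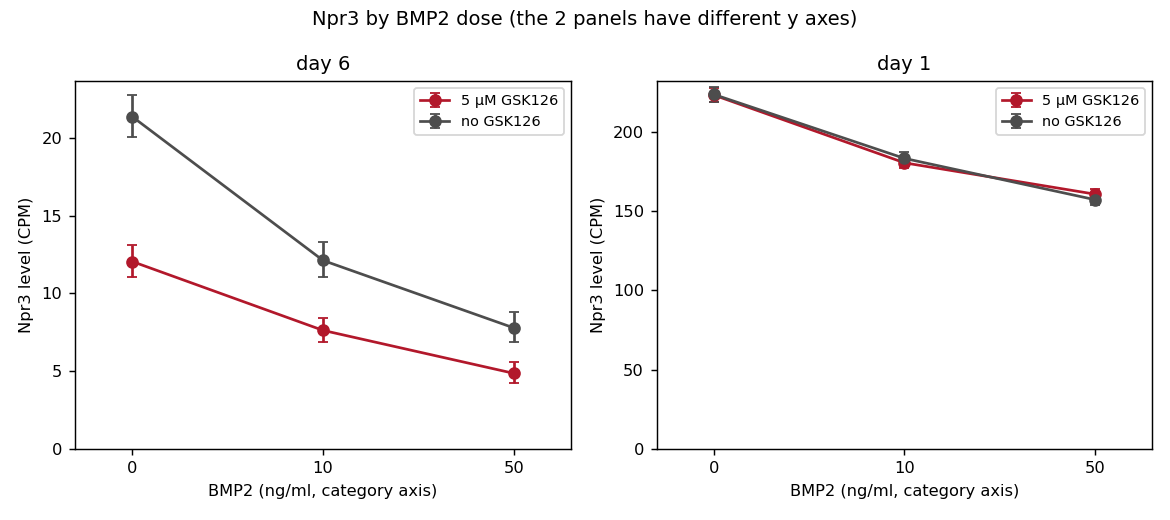
Npr3 level (CPM, linear axes from 0 with different scales) against BMP2 dose (ng/ml, category axis) on day 6 and day 1, with and without 5 µM GSK126; bars are exact 95% Poisson intervals. On day 6 the GSK126 line runs below the other at every dose (12.1, 7.62 and 4.85 against 21.4, 12.1 and 7.78 CPM), and on day 1 the lines nearly coincide.

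The lowest Npr3 level of the series was that of GSK126 with 50 ng/ml BMP2 on day 6. GSK126 with 10 ng/ml BMP2 was 2.81-fold (2.49 to 3.17) and GSK126 with 50 ng/ml was 4.40-fold (3.79 to 5.14) below vehicle. Multiplying the separate effects of each agent would give 6.84 and 4.39 CPM at 10 and 50 ng/ml, against 7.62 (6.88 to 8.42) and 4.85 (4.22 to 5.56) CPM observed. Both observed values were slightly above that product, which itself rests on the vehicle and single-agent libraries. Their counting error is not in the intervals, so no departure from the product can be read from them. The test of GSK126 by BMP2 on day 6 gave 0.15 ± 0.46 (log2, adjusted p = 0.94). That fit takes both BMP2 doses as 1 level, so differences between the doses enter its spread and widen the standard error. On day 6, Npr3 at 50 ng/ml was 1.57-fold below 10 ng/ml with GSK126 and 1.56-fold below it without. The test therefore cannot decide whether the agents interact in Npr3 or in other genes that follow the dose. No gene passed that test (0% by edgeR; 1125 had an unadjusted p under 0.05, DESeq2 called 190 and limma-voom 0). Along the order of Npr3 levels on day 6, 10 ng/ml BMP2 alone and GSK126 alone had overlapping intervals, as did 50 ng/ml BMP2 alone and GSK126 with 10 ng/ml.

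Npr2, the CNP receptor, was present at a like level in every library. It had 73.6, 70.9 and 73.6 CPM on day 6 with GSK126 at 0, 10 and 50 ng/ml BMP2, against 73.4, 64.2 and 63.0 CPM without. On day 1 it had 78.9, 72.1 and 73.1 CPM with GSK126, against 73.5, 68.3 and 67.2 CPM without. The libraries of both days overlapped, and the lowest 2 were those of day 6 with BMP2 and no GSK126. In order of level, the day 1 library with GSK126 alone stood clear of the next, and all other neighbours had overlapping intervals. No test passed: day 6 against day 1 gave -0.05 ± 0.04 (log2, adjusted p = 0.24), GSK126 gave 0.12 ± 0.05 on day 6 (higher in 3 of 3 doses, adjusted p = 0.11) and 0.10 ± 0.05 on day 1 (adjusted p = 0.81). BMP2 gave -0.12 ± 0.05 on day 6 (adjusted p = 0.14) and -0.12 ± 0.05 on day 1 (adjusted p = 0.28), lower in 4 of 4 pairs on each day. These values crossed the threshold under some other settings, with sizes of at most 0.26 (log2).

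**Figure D3:**
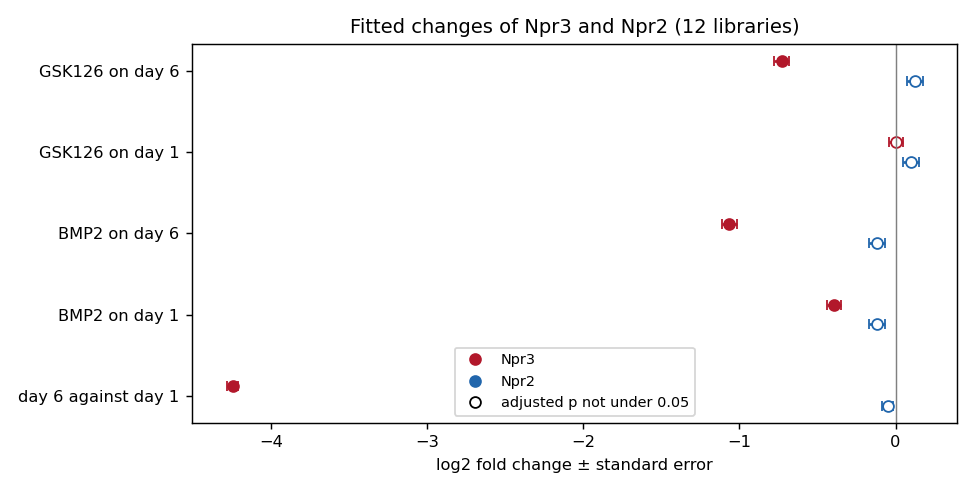
Fitted log2 fold changes of Npr3 and Npr2 with standard errors over the 12 libraries, for GSK126 and BMP2 on each day and for day 6 against day 1; open symbols did not pass at an adjusted p of 0.05. Npr3 runs from 0.0025 for GSK126 on day 1 to -4.24 for day, and all Npr2 values lie between -0.12 and 0.12.

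The receptors exchanged places per length. The ratio of Npr3 to Npr2 in RPKM was 0.0864, 0.0568 and 0.0348 on day 6 with GSK126 at 0, 10 and 50 ng/ml BMP2, against 0.154, 0.0998 and 0.0652 without. On day 1 it was 1.50, 1.32 and 1.16 with GSK126, against 1.61, 1.42 and 1.24 without. Npr3 thus exceeded Npr2 in all 6 libraries of day 1, and Npr2 exceeded Npr3 by 6.50 to 28.7 times in all 6 of day 6. Being a ratio within a library, it does not depend on how libraries are scaled. It does rest on the gene lengths of the deposited table, 6926 bases for Npr3 and 3656 for Npr2. The same ratio for Ostn over Npr3 was 12.6, 21.4 and 47.3 on day 6 with GSK126 and 0.022, 0.0118 and 0.151 without, with Ostn at 0 on day 1.

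**Figure D4:**
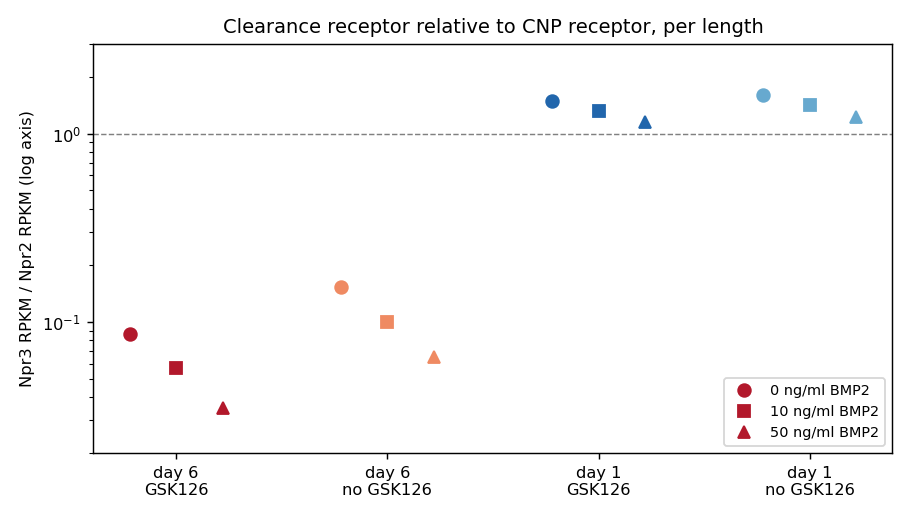
Ratio of Npr3 to Npr2 in RPKM (log axis) in each library, with marker shapes for BMP2 dose and a dashed line where both are equal. All 6 libraries of day 1 lie above the line at 1.16 to 1.61, and all 6 of day 6 lie below it at 0.0348 to 0.154.

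Npr1, the cyclase receptor for ANP and BNP, stayed near the floor. It had 3, 3 and 6 read pairs on day 6 with GSK126 at 0, 10 and 50 ng/ml BMP2, against 11, 3 and 5 without. On day 1 it had 32, 18 and 25 with GSK126, against 15, 12 and 17 without. Every library of day 6 was below every library of day 1, although by a single read pair between 11 and 12, and the ratio intervals excluded 1 only in the 3 treatments with GSK126. Per length it reached at most 0.139 RPKM, where Npr2 had at least 10.8.

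Marker levels were recorded beside these results, whether or not they moved with them. The 5 chondrocyte markers summed to 313 to 1212 CPM on day 6 with GSK126 and to 91.6 to 410 CPM without, and to 2352 to 4215 CPM on day 1. Col2a1 made up most of each sum. Col9a1 had 66 to 212 read pairs on day 6 with GSK126, against 1 to 3 without, while Acan had 2 read pairs in 1 library and 0 in the other 11. The 5 skeletal muscle markers, from the other tissue known to make osteocrin, summed to 0.358 to 0.511 CPM on day 6 with GSK126 and to 0.246 to 0.904 CPM without, with Myog at 0 in all 6 libraries. On day 1 the skeletal muscle markers summed to 0.851 to 1.72 CPM, and Acta1 reached 1 CPM. The 6 osteoblast markers summed to 37890 to 80990 CPM on day 6 with GSK126 and to 29180 to 74590 without, nearly all of it Col1a1. Among them Bglap, which encodes osteocalcin, had 63.4, 226 and 547 CPM on day 6 with GSK126 at 0, 10 and 50 ng/ml BMP2, against 4.56, 30.6 and 187 CPM without. The part of the chondrocyte and osteoblast markers and of the Rn45s share in the Ostn and Npr3 values was not tested.

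A list of 46 genes of natriuretic peptide processing, cGMP signalling and factors tied to these pathways was read in the same fit. Of these, 28 were tested and 18 were below the filter on low counts. For GSK126 on day 6, 9 passed as higher and 6 as lower, where 14.3% of all genes passed as higher and 14% as lower. The median of the 28 was 0.079 (log2), against -0.0017 over all genes. For BMP2 on day 6, 8 passed as higher and 8 as lower, where 13.3% and 15.5% of all genes did. For day, 13 passed as higher and 11 as lower, with 40.5% and 37.5% of all genes doing so. For BMP2 on day 1, 1 passed as higher and 1 as lower, against 1.8% and 1.86% of all genes, and for GSK126 on day 1 none did. The GSK126 effect differed between the days for 4 genes upward and 4 downward (3.94% and 6.52% of all genes), and the BMP2 effect for 2 and 2 (3.82% and 5.33%). With 1 library left out, the list genes passing ranged from 6 to 17 for GSK126 on day 6, from 10 to 17 for BMP2 on day 6, from 0 to 5 for BMP2 on day 1, from 1 to 13 for the GSK126 difference and from 1 to 12 for the BMP2 difference. No list gene passed for BMP2 on day 1 without any 1 of the 6 libraries of day 1, and 1 or 2 passed for either difference. The high ends of both differences came without a day 6 library with 50 ng/ml BMP2, or for GSK126 also without the day 6 vehicle. The low ends on day 6 were the fits without the library of 10 ng/ml BMP2 with GSK126, and the GSK126 count was 8 without that of 10 ng/ml BMP2 alone. Some low genes entered the fit through a single arm of a comparison, which counts toward those numbers: 2 of the 9 higher with GSK126 (Pde1a and Pde5a), 1 of the 8 lower with BMP2 on day 6 (Pde3a), and 3 of the 13 higher (Pde5a, Nos3 and Fgf18) and 1 of the 11 lower (Pde3a) with day. The same holds for 2 of the 4 upward in the GSK126 difference between days (Pde1a and Pde5a). It also holds for 1 of the 2 downward in the BMP2 difference (Pde3a). The differences of these genes in all those comparisons are described and not tested. Fitted on the 6 libraries of day 6 alone, the GSK126 calls of Pde3a, Vasp, Gnai2, Mef2a and Mef2c and the BMP2 calls of Fgfr3 and Prkg2 named here were lost.

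Among the cGMP phosphodiesterases, which break cGMP down, Pde1b rose with GSK126 on day 6 by 1.35 ± 0.27 (log2, adjusted p = 0.011). Pde1a and Pde5a, the enzyme blocked by sildenafil, reached the level for the fit only in the day 6 libraries with GSK126 and 0 or 10 ng/ml BMP2. Pde5a had 83, 86 and 42 read pairs on day 6 with GSK126 at 0, 10 and 50 ng/ml BMP2, against 37, 37 and 16 without. Pde1a had 88, 58 and 46 read pairs with GSK126, against 28, 16 and 5 without. In both genes the count with GSK126 was the higher at each dose. Pde3a (-1.16 ± 0.35, adjusted p = 0.048) lost its call by DESeq2 (adjusted p = 0.068), with library size alone (0.051), without the filter (0.063) and without any 1 of the 6 libraries of day 1 or of the 2 libraries of day 6 with 10 ng/ml BMP2. Pde1b lost its call without either of those 2 day 6 libraries.

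Pde3a, which cGMP inhibits, reached the level for the fit only in the 2 libraries of day 6 without BMP2. Its counts on day 6 at 0, 10 and 50 ng/ml BMP2 were 54, 5 and 2 read pairs with GSK126 and 120, 13 and 1 without, lower at each higher dose. Pde2a, which cGMP activates, rose with BMP2 on day 6 by 1.21 ± 0.12 (adjusted p = 0.00079). Between the days Pde2a fell by 5.12 ± 0.07 (adjusted p = 4.8e-08), to 0.778 to 2.72 CPM on day 6 against 50.6 to 59.8 CPM on day 1. Pde1b (2.95 ± 0.21) rose with day.

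Of the 5 cGMP effectors, Prkg2, the membrane-bound cGMP-dependent kinase through which CNP acts in growth plate cartilage, rose with GSK126 on day 6 by 1.41 ± 0.24 (log2, adjusted p = 0.0059). Prkg2 had 10.65, 23.36 and 34.38 CPM on day 6 with GSK126 at 0, 10 and 50 ng/ml BMP2, against 6.005, 10.29 and 7.35 CPM without. With BMP2 on day 6 it rose by 1.00 ± 0.26 (adjusted p = 0.027), a call kept in only 3 of 12 fits with 1 library left out. Its level fell with day by 1.50 ± 0.16 (adjusted p = 0.00011). Prkg1, the soluble form of the kinase, did not pass with GSK126 (0.43 ± 0.23 on the log2 scale). Vasp, a substrate of these kinases, fell by 0.25 ± 0.04 with GSK126 on day 6.

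Among peptide-processing genes, Mme, which encodes neprilysin, a protease that degrades natriuretic peptides, rose with day by 2.30 ± 0.11 (log2, adjusted p = 2.2e-06). With BMP2 it fell by 1.56 ± 0.15 on day 6 (adjusted p = 0.00072) and by 1.06 ± 0.15 on day 1 (adjusted p = 0.018), a day 1 call that any left-out library of day 1 removed. Its levels on day 6 were 464, 253 and 65.4 CPM with GSK126 and 410, 267 and 108 CPM without, at 0, 10 and 50 ng/ml. Furin, the protease that cuts natriuretic peptide precursors, was at 74.7 to 104 CPM on day 6 and 117 to 136 CPM on day 1, and fell with day by 0.50 ± 0.03. Pcsk6, a related protease, rose with day by 4.58 ± 0.21.

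In the FGF receptor and MAP kinase branch that CNP opposes in the growth plate, Fgfr3 rose with BMP2 on day 1 by 1.16 ± 0.15 (log2, adjusted p = 0.013) and on day 6 by 0.83 ± 0.15 (adjusted p = 0.0076). The day 1 call was lost without any 1 library of that day. Fgf18, a ligand of that receptor, fell with BMP2 on day 6 by 2.80 ± 0.31 (adjusted p = 0.0011). It had 267, 65 and 9 read pairs with GSK126 and 258, 125 and 17 without, at 0, 10 and 50 ng/ml. With GSK126 on day 6, Mapk3 and Map2k1, kinases of the cascade, fell by 0.44 ± 0.05 and 0.35 ± 0.04. Gnai2, an inhibitory G protein subunit of the kind that couples to Npr3, fell by 0.27 ± 0.05.

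Of 5 factors tied to Ostn in other settings, 3 rose and 0 fell with GSK126 on day 6, where 14.3% and 14% of all genes did. The rises were not particular to GSK126. With BMP2 on day 6, 3 rose and 0 fell (13.3% and 15.5% of all genes). With day, 3 rose and 1 fell (40.5% and 37.5%). Foxo1, an insulin-controlled factor tied to Ostn in mouse muscle cells, rose by 0.68 ± 0.05 (log2, adjusted p = 0.00025). It had 16.0, 23.2 and 25.0 CPM with GSK126 at 0, 10 and 50 ng/ml BMP2, against 10.7, 14.0 and 15.1 CPM without. Its GSK126 effect was larger on day 6 than on day 1 by 0.55 ± 0.07 (adjusted p = 0.0056). Foxo1 also rose with BMP2 on day 6, by 0.52 ± 0.06 (adjusted p = 0.0010). Mef2c and Mef2a, members of the MEF2 family tied to OSTN in human neurons, rose by 1.08 ± 0.31 and 0.61 ± 0.15, calls that were each lost without any 1 of the 6 libraries of day 1 or of 4 libraries of day 6 (adjusted p up to 0.16 and 0.14). With day, Mef2c rose by 3.45 ± 0.23 and Mef2a by 1.69 ± 0.11, and Vdr, the vitamin D receptor, fell by 1.48 ± 0.21.

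Some list members below the filter showed counts in a few libraries and were singled out after their values were seen. Pde3b had 5, 13 and 9 read pairs on day 6 with GSK126 and 0 in all other libraries. Gucy1a1, a subunit of the nitric oxide receptor, had 3, 12 and 75 read pairs on day 6 with GSK126 at 0, 10 and 50 ng/ml BMP2, against 0, 1 and 0 without, and 0 on day 1. Its partner subunit Gucy1b1 was at 0 in all 12 libraries. Gucy1a1 exceeded 1 CPM in 1 library.

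**Figure D5:**
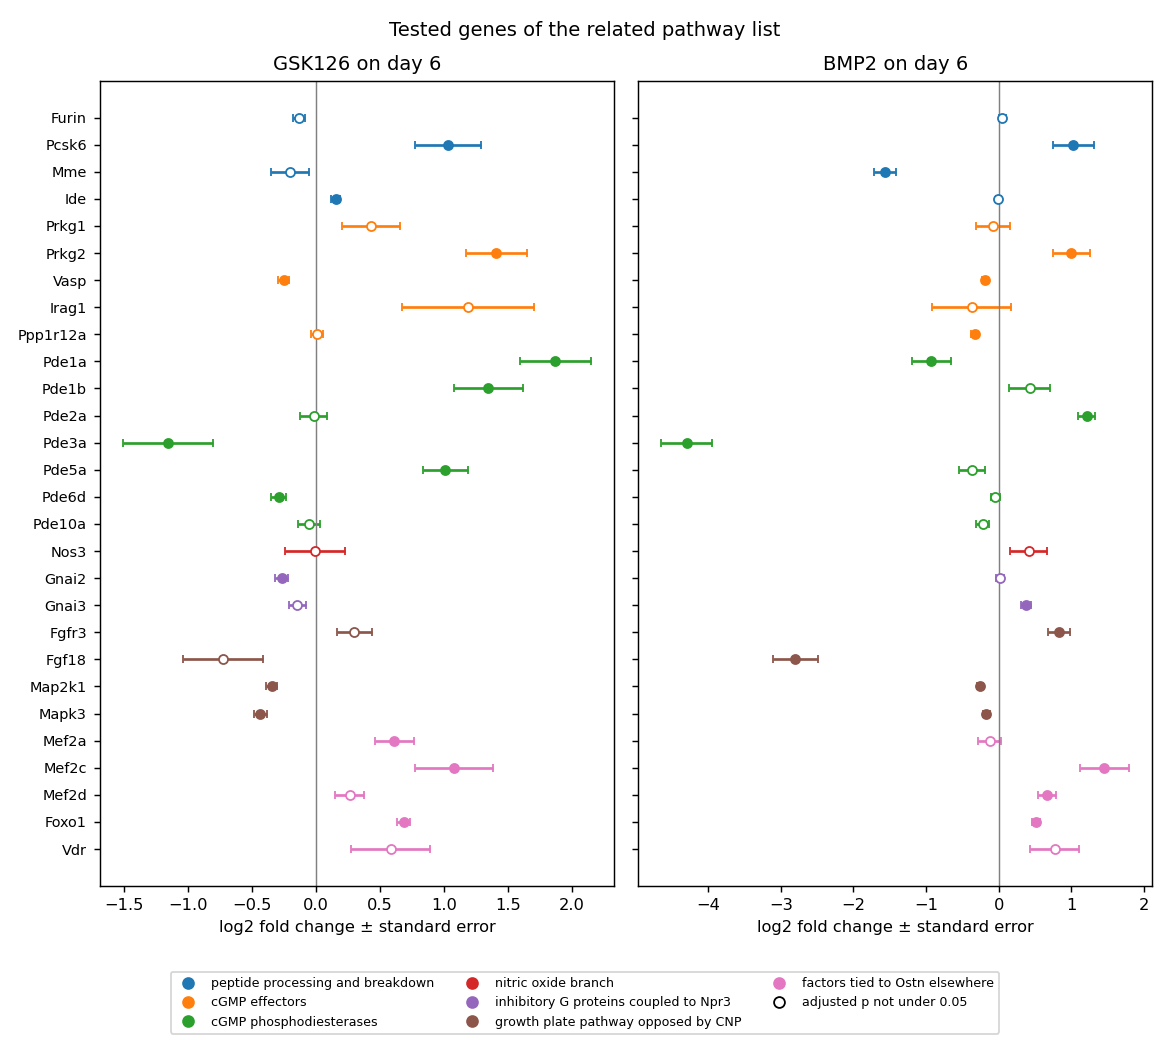
Fitted log2 fold changes with standard errors of the 28 tested genes of the related list for GSK126 on day 6 and BMP2 on day 6, coloured by role; open symbols did not pass at an adjusted p of 0.05. With GSK126 9 genes passed as higher and 6 as lower, and with BMP2 8 passed in each direction. Pde1a and Pde5a (GSK126) and Pde3a (BMP2) entered the fit through a single arm and are a description.

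For the 4 members in the fit, the genes that rose and fell most closely with them were ranked among 10974 genes. The measure was the Pearson correlation of log2(CPM + 0.5) over the 12 libraries, which ignores the height of a level and the size of its change. The libraries share the split by day, so high values are common, and they are given as a description. For Ostn the nearest were Tfcp2l1 (r = 0.992), Stard5 (r = 0.985), Rabgap1l (r = 0.982), Paqr3 (r = 0.977) and Cyp2c44 (r = 0.976). Tfcp2l1 had 98 to 131 read pairs on day 6 with GSK126, against 9 to 13 without, and 5 to 10 on day 1. For Npr3 they were Zyx (r = 0.996), Hirip3, Rfc5, E2f1 and Apbb1ip. Zyx had 3214 to 4526 read pairs on day 6 with GSK126, 2315 to 5835 without, and 14813 to 20124 on day 1. For Npr2 they were Napepld (r = 0.916), Fam113a, Foxc1, Mboat1 and Acox3, and for Nppb Psmd11 (r = 0.987), Nup153, Set, Orc2 and Gatad1.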

How the data were processed

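RNA was sequenced from 12 libraries (2 days, 3 BMP2 levels, 2 GSK126 levels, 1 library per condition). The authors deposited gene counts and RPKM values in 1 table. The submitters' processing notes name mm10 as build, and bcl2fastq, TopHat2 2.0.6 and HTSeq as tools; no counting settings were found. Counts deposited by the authors were tested as they stand, although all were even. RPKM values deposited by the authors imply totals 1.23 to 1.30 times the gene sums, and were used for ratios and ranks per length.

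The filter kept genes that reached 1 CPM in 2 or more libraries. After TMM scaling, the quasi-likelihood test of edgeR 4.0.16 (R 4.3.3) was applied, with a GSK126 term and 2 BMP2 dose terms for each day separately, which leaves 4 residual degrees of freedom from 8 coefficients. GSK126 by any BMP2 was tested in a second fit, whose spread holds the differences between the 2 BMP2 doses. Scripts were tested on simulated data. Alternatives were DESeq2 1.42.0, limma-voom (limma 3.58.1), library size scaling, no filter, halved counts, each day alone and each library left out. Separate cultures are not stated in the labels. With 1 library per condition, no variation between like libraries could be estimated. The first fit gives each gene 1 estimate of the spread, shared by both days. Its 4 residual degrees of freedom hold any departure from adding the GSK126 and BMP2 dose terms within a day. Noise, which may be technical, enters the same residual and cannot be told apart from such a departure. The p-values rest on this residual and do not cover variation between separate cultures.

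The members and lists were chosen with earlier results of these data known. Named genes were all 6 members, the called list genes of largest size per contrast and role (up to 4, some given by count only), and the 5 genes most like each member. A gene of the related list is not reported here and stands in none of its counts. Older symbols served for Gucy1a1 (Gucy1a3), Gucy1b1 (Gucy1b3) and Irag1 (Mrvi1).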

Additional observations from a re-analysis of the deposited data

Results flagged for a closer look

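For Npr3, both agents had effects that differed between the days by a test of the difference itself. The GSK126 effect differed by -0.73 ± 0.07 (log2, day 6 minus day 1, adjusted p = 0.0013 by edgeR's quasi-likelihood test), with Npr3 lower in 3 of 3 doses on day 6. On day 1 the ratios with GSK126 to without were 0.998, 0.985 and 1.02 at 0, 10 and 50 ng/ml BMP2, each within counting error of 1. The BMP2 effect differed by -0.67 ± 0.07 (adjusted p = 0.0032), with Npr3 lower in 4 of 4 pairs of libraries on each day. That BMP2 call was lost without the day 1 vehicle library or the day 1 GSK126 library, with the difference at -0.67 in both fits. Npr3 was 10.5 to 33.1 times lower on day 6, where the effects were larger.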

How the results depend on the processing

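No paired analysis was possible because each condition has 1 library and the labels give no replicate numbers that pair libraries. The Npr3 calls for day, for GSK126 on day 6, for BMP2 on day 6 and for the GSK126 difference between days held under every alternative run and with each library left out. In fits of each day alone, which hold 6 libraries and 2 residual degrees of freedom, the genes passing numbered 956 for GSK126 and 1038 for BMP2 on day 6 (3415 and 3463 in the joint fit), and 2030 for GSK126 and 4697 for BMP2 on day 1 (0 and 441). There Npr2 passed on day 1 for GSK126 (0.097) and BMP2 (-0.12), Nppb stood at -0.56 for GSK126 on day 1, which is not read as a call because it entered the fit only through libraries without GSK126, and Npr3 stood at -0.00074 for GSK126 on day 1, a reversed sign near 0. DESeq2 called 912 genes for BMP2 on day 1, 6 for GSK126 on day 1 and 190 for GSK126 by BMP2 on day 6, where no filter gave 4. With library size alone the median of all genes stood at -0.179 for day, -0.146 for BMP2 on day 6 and -0.105 for the BMP2 difference between days, against 0.030, -0.0017 and -0.0042 after TMM. It gave 3073 genes higher and 6234 lower for day (4883 and 4524 after TMM), 809 and 3410 for BMP2 on day 6 (1600 and 1863), 268 and 787 for the BMP2 difference (460 and 642) and 1841 and 1183 for GSK126 on day 6 (1726 and 1689). There Npr2 passed for BMP2 on day 6 (-0.26) and for day (-0.26), and the signs of its BMP2 difference between days (-0.10), of Nppb for BMP2 on day 1 (-0.023) and of Ppp1r12a for day (-0.076) reversed. Without the filter that Npr2 difference was -0.013. The joint fit shares 1 spread per gene between both days, and a fit of each day alone does not. The cause of these changes was not tested.

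With 1 library left out, genes passing ranged from 1 to 1487 for BMP2 on day 1, from 2328 to 4846 for BMP2 on day 6, from 1825 to 4252 for GSK126 on day 6, from 104 to 2505 for the BMP2 difference and 342 to 2622 for the GSK126 difference between days. For GSK126 by BMP2 on day 6 they ranged from 0 to 156 in 8 fits, and the other 4 could not be made because the term was no longer estimable. Npr3 ranged from -0.41 to -0.38 for BMP2 on day 1, from -0.74 to -0.59 for the BMP2 difference, from -0.21 to 0.51 for GSK126 by BMP2 and from -0.012 to 0.015 for GSK126 on day 1. Npr2 ranged from 0.074 to 0.19 for GSK126 on day 6, from -0.21 to -0.025 for BMP2 on day 6, from -0.091 to -0.018 for day, from -0.026 to 0.085 for the GSK126 difference and from -0.088 to 0.090 for the BMP2 difference. Its GSK126 value on day 6 passed without the day 6 vehicle (adjusted p = 0.017) or GSK126 (adjusted p = 0.018) library. Nppb ranged from -0.13 to 0.14 for BMP2 on day 1. For called list genes, 631 such fits kept the call and 175 lost it, and the other alternatives kept it in 341 fits, lost it in 36 and lost it with a reversed sign in 1.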
